A study of Homo sapiens with 4 samples.

Results

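The imprinted gene cluster at 14q32, which lies between the genes DLK1 and DIO3 on human chromosome 14, was examined in small RNA libraries of HEK293T, a cell line derived from human embryonic kidney. Its members were chosen by position alone, as every listed feature that lies on the plus strand within a window of 220 kb (GRCh38). The first member, MIR770, starts at 100852390 and the last, MIR656, ends at 101066801. This rule took 100 of the 7062 small RNA features in the deposited tables, spread over 214.4 kb of chromosome 14. They were 52 microRNA (miRNA) precursor genes, 46 small nucleolar RNA (snoRNA) genes and 2 features without a name. No feature on the minus strand was listed in the window.

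The libraries came from cells that had been transiently transfected with 1.5 µg of plasmid per well, coding for the largest subunit of RNA polymerase II with a C-terminal domain (CTD) of 52 heptad repeats. In the 52X WT group the CTD was wild type, and in the 52X T4A group alanine took the place of threonine 4 in the heptads. Both groups were then treated for 72 h with α-amanitin (2.5 µg/ml), which blocks the endogenous polymerase, as a selection for transfected cells. The submitters describe untransfected cells as gone by then, which was not measured here. There were 2 libraries of each group, described as biological replicates without saying what was separate between them, and p-values measure the spread between these libraries only. The comparison addresses what the loss of a phosphorylatable residue 4 in the CTD does to the level of small RNAs.

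The RNAs of this locus are known to be made from the maternal chromosome only, where the long noncoding RNA MEG3 and its relatives MEG8 and MEG9 are transcribed as a long run of exons and introns. miRNAs are cut from hairpins in this transcript and pair with messenger RNAs through bases 2 to 8 from their 5′ end, the seed. The C/D box snoRNAs SNORD112, SNORD113 and SNORD114 are known to be released from introns, and no target in ribosomal RNA is established for them. The cluster is best known for its activity in placenta, brain and embryonic tissue. The members fall into 3 blocks, with 10 miRNAs from MIR770 to MIR370 before the SNORD113 and SNORD114 genes, the 46 snoRNAs, and 42 miRNAs after them from MIR379 to MIR656. SNORD112, counted with the snoRNAs, lies before MIR370.

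The mature sequences of the 5 members with most reads are shown because these members held 73.2% of the cluster's reads, with the seed in capitals. Both arms are given, because the deposited counts are per precursor and do not tell the arms apart. All 52 miRNA members had at least 1 mature sequence in RefSeq (GRCh38.p14), 95 sequences in all with 80 different seeds.
miR-127-5p: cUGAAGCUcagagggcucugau
miR-127-3p: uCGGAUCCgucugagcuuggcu
miR-381-5p: aGCGAGGUugcccuuuguauau
miR-381-3p: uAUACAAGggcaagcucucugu
miR-379-5p: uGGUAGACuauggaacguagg
miR-379-3p: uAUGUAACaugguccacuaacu
miR-409-5p: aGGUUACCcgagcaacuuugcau
miR-409-3p: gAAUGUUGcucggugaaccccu
miR-493-5p: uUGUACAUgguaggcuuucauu
miR-493-3p: uGAAGGUCuacugugugccagg
None of the other members carried either seed of miR-127, miR-409 or miR-493. The seed of miR-381-3p is also that of miR-300, and the seed of miR-379-3p that of miR-411-3p. Outside the cluster, the only miRNA in the table with one of these 10 seeds was MIR3529, which shares the seed of miR-379-5p and had 64 reads.

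Library depth ranged from 16180790 to 27370127 counts assigned to features, and levels are given as CPM, counts per 1000000 reads, with TMM-scaled library sizes, which correct for differences in composition between libraries. Markers of other cell types were read from the same tables. All 8 miRNAs taken as typical of this line, MIR10A, MIR10B and 6 precursors of the MIR17HG cluster, had counts, and summed to between 204300 and 261100 CPM. All 6 blood miRNAs had counts, and as a list came to 31.97 to 42.47 CPM in 52X T4A and 49.99 to 61.54 in 52X WT. All 6 neuronal miRNAs had counts too, and as a list came to 12650 to 13160 and 13340 to 16000 CPM. The liver miRNA MIR122 stayed between 0.253 and 0.948 CPM. The 6 muscle miRNAs, which also all had counts, as a list came to 81.62 to 96.67 CPM in 52X T4A and to 30.5 to 33.09 CPM in 52X WT. The part of these markers in the results below was not tested, and in bulk RNA fewer cells of a type and less RNA per cell cannot be told apart.

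The cluster held few reads. All 100 members together had 834 and 825 reads in the 52X T4A libraries, against 527 and 700 in the 52X WT libraries, 2886 of the 78905264 reads in the tables. As CPM of the raw library total this was 51.54 (95% exact binomial limits 48.1 to 55.16) and 30.14 (28.12 to 32.27) in replicates 1 and 2 of 52X T4A. In 52X WT it was 32.54 (29.82 to 35.44) and 36.54 (33.88 to 39.35). These limits cover counting error only, since reads copied by PCR are not independent molecules. A read was found at 60 of the 100 members, against 53.9% of all listed features, and 27 members had a read in every library. Read in a single library, a count of 0 leaves room for up to 3 expected reads (95% upper limit). This was 0.0950 CPM in the deepest library and 0.206 CPM in 52X WT replicate 1, where the limit is highest. A member at 0 in all libraries has a lower joint limit, which was not computed.

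**Figure D1:**
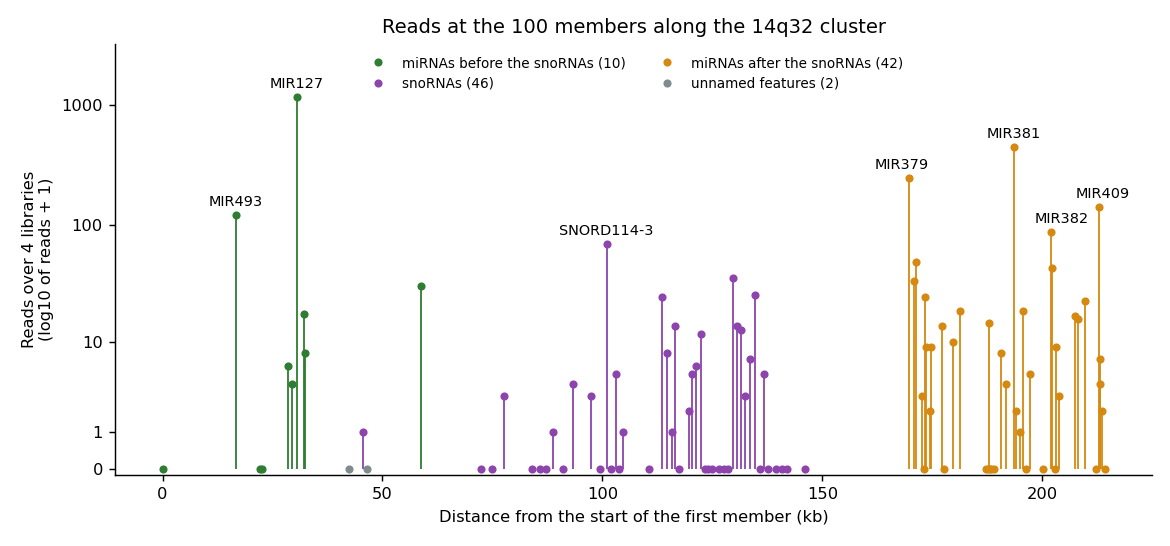
Reads summed over the 4 libraries (log10 of reads + 1) at each of the 100 members, plotted against distance in kb from the start of the first member and coloured by block. MIR127 stands highest with 1157 reads, most snoRNAs have few reads or none, and 40 members lie at 0.

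Few members carried these reads. MIR127 alone held 40.1% of them, MIR127 with MIR381 held 55.4%, and the first 10 members held 83.2%. Every other member stayed low, and the unnamed features, which lie beside SNORD112, had no read at all. Among the 1869 miRNA features of the tables, ordered by CPM per kb of feature length, MIR127 ranked 243rd and MIR381 286th.

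On that length-scaled level MIR127 was above MIR381 in all 4 libraries, with mean levels of 156.3 and 82.63 CPM per kb. MIR381 was above MIR379 (45.06 CPM per kb) in 3 of 4 libraries, and MIR379 was above MIR409 (23.41) in all 4. MIR409, MIR493 (18.2) and MIR382 (13.63) followed, and each was above the next in 3 of 4 libraries, so their order was not the same in every library. SNORD114-3 (13.47 CPM per kb) and MIR299 (10.94), and MIR299 and MIR134 (7.797), changed places in 2 of 4.

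The miRNAs before the snoRNAs were represented by a single strong member. MIR127 (chr14:100882979-100883075) overlaps an exon of the noncoding gene MIR493HG and lies opposite the protein-coding gene RTL1, whose transcript miR-127 is known to target in placenta. It had 359 and 359 reads in the 52X T4A libraries, against 212 and 227 in the 52X WT libraries, or 22.68 and 11.37 CPM against 14.53 and 12.06 CPM. The first 52X T4A library was highest and the second lowest of the 4, so the groups overlapped. Means were 17.03 ± 7.999 and 13.29 ± 1.75 CPM (SD, n = 2 here and for the means that follow), with a log2 fold change of 0.35 ± 0.391 (SE), a 95% interval from −0.53 to 1.23 and a Benjamini-Hochberg adjusted p of 0.746 in edgeR's quasi-likelihood test. The change was −0.24 without 52X T4A replicate 1 and 0.79 without 52X T4A replicate 2.

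The neighbours of MIR127 opposite RTL1 had far fewer reads. In a stretch of 3.78 kb, MIR431 had 6 reads over the 4 libraries, MIR433 had 4, MIR432 had 18 and MIR136 had 8, against 1157 for MIR127. These neighbours, apart from MIR432, were singled out after their values had been seen. MIR432 had 4 and 7 reads in 52X T4A and 5 and 2 in 52X WT, too few to be tested.

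MIR493 (chr14:100869060-100869148), in an intron of MIR493HG, was the other member of this block with enough reads to test. Its counts were 35 and 33 in 52X T4A and 23 and 31 in 52X WT, or 2.21 and 1.05 CPM against 1.58 and 1.65 CPM. The 52X WT libraries lay between the 52X T4A libraries, and the log2 fold change was −0.04 ± 0.461 (SE; 95% interval −1.07 to 1.00; edgeR, Benjamini-Hochberg adjusted p 0.984). MIR370, in introns of MEG8 and MIR493HG, had 5 and 10 reads in 52X T4A and 7 and 9 in 52X WT, which was 0.316 and 0.317 CPM against 0.480 and 0.478. Its groups did not overlap on the CPM scale, but it did not pass the filter on low counts. MIR770, in MEG3 itself, MIR337 and MIR665 had no read.

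The miRNAs after the snoRNAs held 1275 reads, from 30 of 42 precursors. MIR381 (chr14:101045920-101045994), in an intron of MEG9, was the most abundant. It had 158 and 68 reads in the 52X T4A libraries, against 73 and 144 in the 52X WT libraries, or 9.98 and 2.15 CPM against 5.00 and 7.65 CPM. The 52X T4A libraries were the highest and the lowest of the 4, and the level in the first was 4.64 times that in the second (95% counting limits 3.47 to 6.25). No difference between groups was resolved over this spread, with means of 6.07 ± 5.54 and 6.33 ± 1.87 CPM and a log2 fold change of −0.10 ± 0.608 (SE; 95% interval −1.46 to 1.27; edgeR, Benjamini-Hochberg adjusted p 0.981). It became −1.57 without 52X T4A replicate 1 and 0.67 without 52X T4A replicate 2.

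MIR379 (chr14:101022066-101022132), in an intron of MEG8 and the first miRNA of this block, had 50 and 93 reads in 52X T4A and 29 and 75 in 52X WT. Its levels were 3.16 and 2.95 CPM in 52X T4A and 1.99 and 3.98 CPM in 52X WT. Here the spread was between the 52X WT libraries, whose first was 0.499 times the second (counting limits 0.313 to 0.775), and the log2 fold change was 0.01 ± 0.409 (SE; 95% interval −0.91 to 0.93; edgeR, Benjamini-Hochberg adjusted p 0.994). MIR382 (chr14:101054306-101054381), with 18 and 39 reads in 52X T4A and 8 and 23 in 52X WT, was at 1.14 and 1.24 CPM against 0.548 and 1.22 CPM. The first 52X WT library was lowest, at 0.449 times the second, which is within counting error (counting limits 0.174 to 1.04). The log2 fold change of MIR382 was 0.40 ± 0.495 (SE; edgeR, Benjamini-Hochberg adjusted p 0.792).

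MIR409 (chr14:101065300-101065378), in an intron of MEG9, had the largest positive change among the members tested. It had 52 and 51 reads in 52X T4A and 24 and 16 in 52X WT, or 3.29 and 1.62 CPM against 1.65 and 0.850 CPM. The second 52X T4A library was just below the first 52X WT library, so the groups overlapped. Means were 2.45 ± 1.18 and 1.25 ± 0.562 CPM, and the log2 fold change of 0.96 ± 0.504 (SE; 95% interval −0.18 to 2.09) did not reach the threshold (edgeR, Benjamini-Hochberg adjusted p 0.467).

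MIR299 (chr14:101023794-101023856), in an intron of MEG8, had the largest negative change. It had 9 and 11 reads in 52X T4A and 16 and 14 in 52X WT, or 0.569 and 0.348 CPM against 1.10 and 0.744 CPM, and the groups did not overlap. The log2 fold change was −1.04 ± 0.532 (SE; 95% interval −2.24 to 0.15) and missed the threshold (edgeR, Benjamini-Hochberg adjusted p 0.467). MIR134 (chr14:101054687-101054759), at an exon of MEG9 and known for its work in neuronal dendrites, had 11 and 13 reads against 7 and 13, with a log2 fold change of −0.16 ± 0.545 (SE; edgeR, Benjamini-Hochberg adjusted p 0.956).

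**Figure D2:**
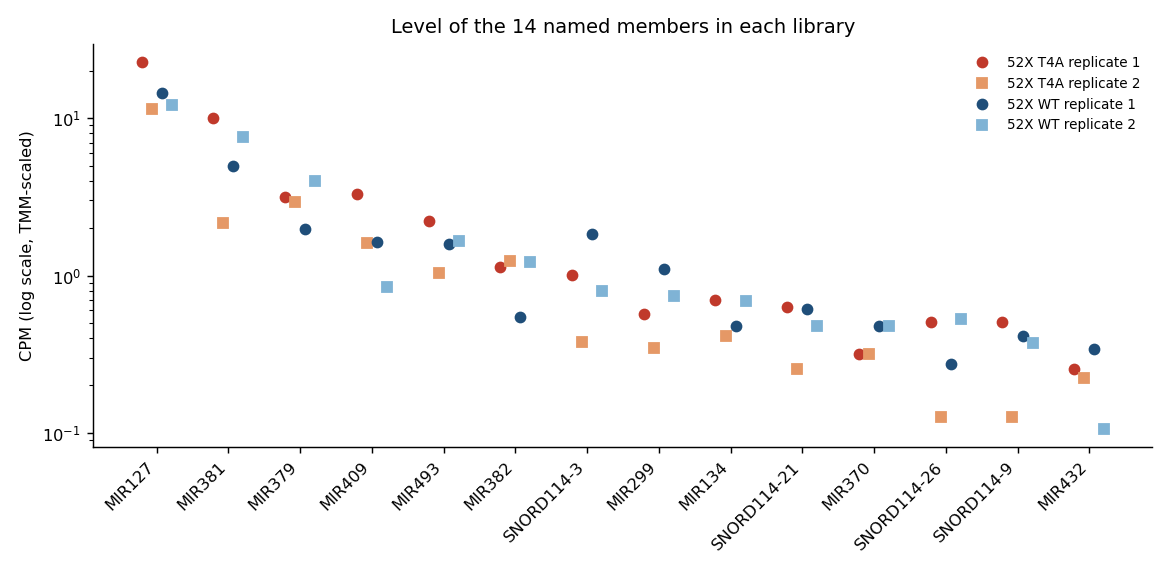
CPM on a log scale of the 14 members named by rule in each library, ordered by mean CPM, with red and orange for the 52X T4A libraries and dark and light blue for the 52X WT libraries. The 52X T4A replicates bracket both 52X WT libraries for MIR127, MIR381, MIR493, MIR134, SNORD114-21 and SNORD114-9, and for MIR299 and MIR370 both 52X T4A points lie below both 52X WT points.

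Precursors that lie next to each other differed widely in reads in this block too. Within 692 bp, MIR409 had 143 reads, MIR412 had 7, MIR369 had 4 and MIR410 had 2. Within 1.79 kb, MIR379 had 247 reads, MIR411 had 34 and MIR299 had 50. A stretch of 1.76 kb with the MIR376 precursors held 15 reads, all at MIR654. MIR376C, MIR376A2, MIR376B, MIR376A1 and MIR300 were at 0 in every library. How reads shared by MIR376A1 and MIR376A2 were counted is not given in the sources used here. These stretches were chosen after their values had been seen.

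The sequences of the MIR376 group and of miR-300 are shown beside that of miR-381-3p because several of them have a seed in common. Capitals mark the seed.
miR-376a-3p: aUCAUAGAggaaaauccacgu
miR-376b-3p: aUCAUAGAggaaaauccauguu
miR-376c-3p: aACAUAGAggaaauuccacgu
miR-300: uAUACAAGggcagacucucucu
miR-381-3p: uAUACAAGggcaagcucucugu
miR-376a-3p is the same from MIR376A1 and MIR376A2, and neither locus had a read. miR-300 has the seed of miR-381-3p but differs from it in the 3′ part, and MIR381 had 443 reads where MIR300 had 0. The counts do not tell which arm of MIR381 these reads came from. In all, 13 seeds occurred in more than 1 member and 22 of the 52 miRNA members carried one of them.

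In 3 cases a pair of precursors gave at least 1 identical mature arm, so reads from that arm cannot be placed at either member of the pair. MIR329-1 and MIR329-2 share both arms and had 2 and 9 reads, and MIR1185-1 and MIR1185-2 share the 5p arm and had 8 and 4. The remaining pair was MIR376A1 and MIR376A2. The arms shared by MIR329-1 and MIR329-2 were as follows, with the seed in capitals.
miR-329-5p: gAGGUUUUcuggguuucuguuuc
miR-329-3p: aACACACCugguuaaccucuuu
The seed of miR-329-3p also belongs to MIR362, outside the cluster, which had 8042 reads, against 11 for the MIR329 pair.

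The snoRNA block had 265 reads from 23 of 46 genes. Reads fell almost wholly on SNORD114 copies, with 256 reads at 19 of 30 numbered copies. The 9 numbered SNORD113 copies had 8 reads at 3 of them, SNORD112 had 1 read, and 6 copies carrying only the name SNORD113 had none. The block took 4.74 and 1.65 CPM in the 52X T4A libraries, against 4.80 and 3.61 CPM in the 52X WT libraries. Only 4 copies had at least 20 reads over the libraries, SNORD114-3 with 70, SNORD114-21 with 36, SNORD114-26 with 26 and SNORD114-9 with 25.

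The sequences of these 4 copies, and of SNORD113-4 as a copy without reads, show how alike the genes are. They are the transcripts of GENCODE v44lift37 whose length equals that of the listed feature. In that annotation SNORD114-26 and SNORD113-4 overlap an exon of MEG8 on the same strand, and SNORD114-3, SNORD114-21 and SNORD114-9 do not. Capitals mark the C box letters TGATGA, searched in the first 15 bases, and the D box letters CTGA, searched in the last 12.
SNORD114-3: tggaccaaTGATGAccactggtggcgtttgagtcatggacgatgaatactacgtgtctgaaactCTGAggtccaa
SNORD114-21: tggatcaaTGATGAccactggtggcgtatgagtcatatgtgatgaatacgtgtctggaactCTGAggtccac
SNORD114-26: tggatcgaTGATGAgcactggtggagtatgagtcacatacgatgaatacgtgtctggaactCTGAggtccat
SNORD114-9: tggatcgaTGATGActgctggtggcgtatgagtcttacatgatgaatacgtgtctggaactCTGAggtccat
SNORD113-4: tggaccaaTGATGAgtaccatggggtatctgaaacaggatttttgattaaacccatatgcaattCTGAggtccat
The 4 copies with most reads were 81.6% to 90.3% identical in pairs, and SNORD113-4 was 67.9% identical to SNORD114-3. No copies among the 43 with a sequence of matching length were identical throughout, but a read shorter than the gene can match several of them, so the counts of single copies are uncertain.

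The C and D boxes bind the core proteins that keep such RNAs stable, and both sets of letters were found in 26 of the 43 copies with a sequence of matching length. Of the 21 such copies with a read, 17 (81.0%) held both, and of the 22 at 0, 9 (40.9%) did. Among 284 other SNORD features with a matching sequence the share was 50.4%. The search allowed no mismatch, so a copy without these letters may have a box spelt otherwise. Most copies with a read had few, and whether the boxes bear on the reads was not tested.

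SNORD114-3 (chr14:100953349-100953423), in introns of MEG8 and MIR493HG, was the only snoRNA with enough reads to test. It had 16 and 12 reads in 52X T4A and 27 and 15 in 52X WT, or 1.01 and 0.380 CPM against 1.85 and 0.797 CPM. The first 52X T4A library was above the second 52X WT library, so the groups overlapped. The log2 fold change was −0.9995 ± 0.622 (SE; 95% interval −2.40 to 0.40), and it did not reach the threshold (edgeR, Benjamini-Hochberg adjusted p 0.542). It became −1.78 without 52X T4A replicate 1 and −0.35 without 52X T4A replicate 2. SNORD114-21 had 10, 8, 9 and 9 reads in 52X T4A replicates 1 and 2 and 52X WT replicates 1 and 2, SNORD114-26 had 8, 4, 4 and 10, and SNORD114-9 had 8, 4, 6 and 7. In each of these the lowest CPM was that of the second 52X T4A library. SNORD114-5 with 5 reads, SNORD114-28 with 5 and SNORD114-6 with 1 were found in the first 52X T4A library alone, and were chosen after their values had been seen.

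No member was called between the groups. Of the 100 members 9 passed the filter on low counts, and of these 0 reached an adjusted p below 0.05 with a fold change above 1.5 in edgeR's quasi-likelihood test, against 0.135% of the 1480 features tested (0.0676% higher and 0.0676% lower in 52X T4A). At an unadjusted p below 0.05 there were also 0 of 9, against 10.3% of all features tested (3.99% higher and 6.28% lower). DESeq2 called 0 of the 9, against 1.89% of the features tested, and 0 had an unadjusted p below 0.05 there, against 8.72%. The log2 fold change was above 0 for 4 members and below 0 for 5, against 46.1% of all features tested above 0. The median of the 9 was −0.04, and that of all tested features was −0.05. In CPM, 1 of the 9 members (MIR299, lower) had groups that did not overlap, against 40.1% of all features tested (18.9% higher and 21.2% lower). The narrowest of the 9 intervals, that of MIR127, ran from −0.53 to 1.23. Leaving out a single library turned the sign of the change for MIR127, MIR493, MIR379, MIR381, MIR382 and MIR134 and kept it for MIR409, MIR299 and SNORD114-3.

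**Figure D3:**
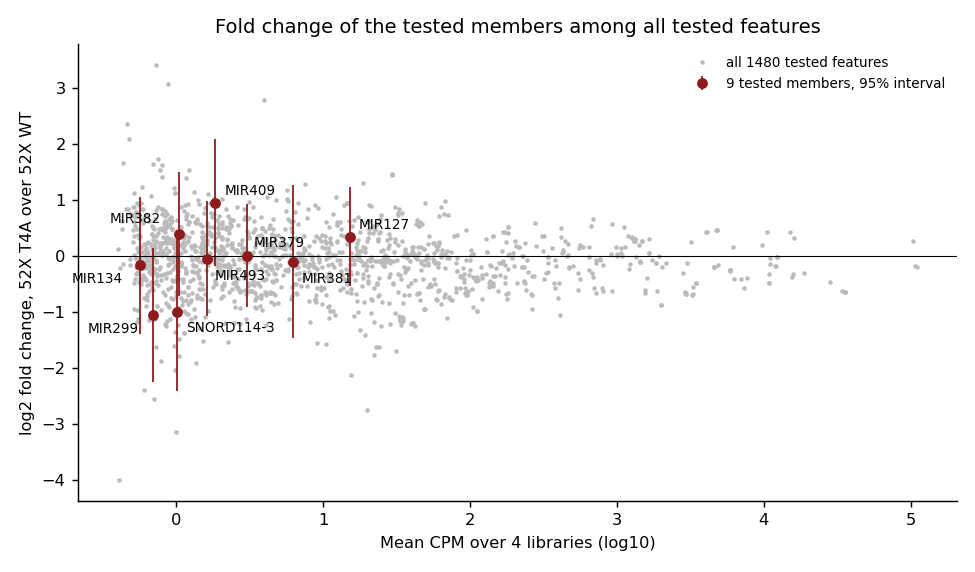
log2 fold change of 52X T4A over 52X WT against mean CPM (log10) for all 1480 tested features (grey) and the 9 tested members (dark red, bars are 95% intervals). All 9 intervals cross 0, and the members lie among features of like abundance.

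The other 51 members with a read were not tested and held 522 reads, 18.1% of the cluster, with at most 36 reads at a member. For 10 of them the CPM values of the groups stood apart, 2 (3.92%) being higher and 8 (15.7%) lower in 52X T4A. Over all 2323 features that had a read but failed the filter, 24.1% stood apart in this way, 12.7% higher and 11.4% lower, and the difference of the members from these shares was not tested. The higher ones were MIR377 (8 and 8 reads against 3 and 4) and MIR410 (1 and 1 against 0 and 0). The lower ones with most reads were MIR370, MIR323A (4 and 8 against 6 and 7) and MIR889 (0 and 4 against 6 and 9), and the others were MIR136, MIR758, MIR655, SNORD114-1 and SNORD114-17. These members were selected by their values, and with so few reads their order rests on a handful of counts.

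Summed over its members, the cluster was at 52.69 and 26.13 CPM in the 52X T4A libraries, against 36.11 and 37.18 CPM in the 52X WT libraries. The 52X WT libraries agreed within sampling noise, with a ratio of 0.971 (95% counting limits 0.866 to 1.09), while the first 52X T4A library was 2.02 times the second (1.83 to 2.22). The means were 39.41 ± 18.78 and 36.65 ± 0.756 CPM, and the difference of 0.02 on the log2 scale was far smaller than the spread between the 52X T4A libraries (exact two-sided permutation test over the 4 libraries, p = 1). With 2 libraries in each group such a test cannot give a p below 1 in 3. Leaving out 52X T4A replicate 1 gave −0.49 and leaving out 52X T4A replicate 2 gave 0.52.

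In all 3 blocks the sum was higher in the first 52X T4A library than in the second, but not every member shared this. The first library was 1.98 times the second for the miRNAs before the snoRNAs (counting limits 1.72 to 2.28), 2.88 times for the snoRNAs (1.99 to 4.18) and 1.93 times for the miRNAs after them (1.66 to 2.25). Without MIR127 and MIR381 the cluster still differed by 1.59 times (1.37 to 1.85). Without MIR381 the miRNAs after the snoRNAs were at 12.13 and 9.28 CPM in 52X T4A replicates 1 and 2. MIR381 differed by 4.64 times, MIR493 by 2.12, MIR409 by 2.03 and MIR127 by 1.99. MIR379 (1.07 times, 0.745 to 1.53) and MIR382 (0.921 times, 0.496 to 1.65) did not differ beyond counting error. The SNORD features outside the cluster took 46610 and 34720 CPM in 52X T4A replicates 1 and 2, and 52540 and 36550 CPM in those of 52X WT. In the 52X WT libraries the ratio was 1.2 (1.01 to 1.43), 1.33 (0.937 to 1.88) and 0.731 (0.613 to 0.87) for the 3 blocks in the same order.

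**Figure D4:**
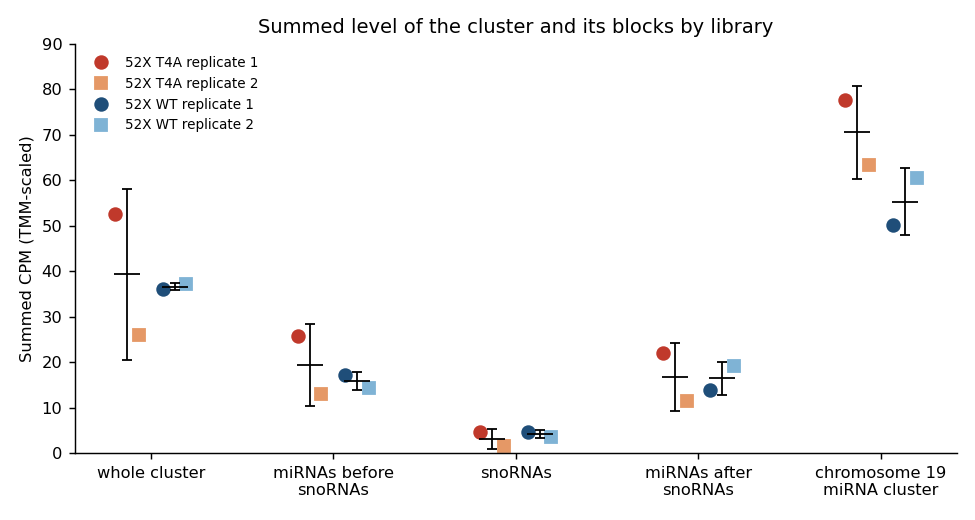
Summed CPM of the cluster, its 3 blocks and the chromosome 19 miRNA cluster in each library, with the mean and SD of each group in black (n = 2). For the cluster and for both miRNA blocks the 52X T4A libraries lie on either side of both 52X WT libraries.

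Between the groups, the log2 difference was 0.21 for the miRNAs before the snoRNAs (19.44 ± 9.05 against 15.89 ± 2.04 CPM; exact permutation p = 1), −0.04 for the miRNAs after them (16.77 ± 7.55 against 16.55 ± 3.64; exact permutation p = 1) and −0.58 for the snoRNAs (3.19 ± 2.19 against 4.21 ± 0.838; exact permutation p = 0.667). In each block the libraries of the groups overlapped. The snoRNA difference became 0.19 without 52X T4A replicate 2 and −1.34 without 52X T4A replicate 1.

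The cluster was set beside other groups of small RNA genes that are imprinted or arranged in long arrays. The primate miRNA cluster on chromosome 19, known for its expression in placenta, had a read at 46 of 46 features and 5103 reads in all. Its summed level was 77.78 and 63.34 CPM in 52X T4A and 50.23 and 60.5 CPM in 52X WT. The 14q32 cluster was lower in all 4 libraries, at 0.677, 0.412, 0.719 and 0.615 times that level, although its features are more numerous (exact sign-flip permutation test over the 4 libraries, two-sided p = 0.125, the smallest it allows). Of the chromosome 19 features 14 were tested, and their median log2 fold change was 0.36 beside −0.04 for the 9 members at 14q32. The median of all tested features was −0.05. None of the 14 was called, with a smallest Benjamini-Hochberg adjusted p of 0.584 in edgeR's quasi-likelihood test.

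The imprinted SNORD115 and SNORD116 cluster on chromosome 15, which like the 14q32 snoRNAs is known to be processed from introns of a long noncoding RNA, was nearly without reads. Of its 74 features 5 had any, with 3 reads each in 52X T4A replicate 1 and none in the other libraries. The SNORD112, SNORD113 and SNORD114 block had 52 to 75 reads in every library. How reads that match several copies were counted is not given in the sources used here. A count near 0 at such copies may therefore not mean that the RNA was absent. By the share of features with a read, the 52 miRNAs at 14q32 (71.2%) were near the other miRNA features (67.9%), and the 46 snoRNAs (50.0%) were below the other SNORD features (63.6%). With at least 20 reads in total there were 12 of 52 such miRNAs against 743 of 1817 others. Of the snoRNAs it was 4 of 46, against 171 of 308. The other SNORD features in both comparisons include the 74 of the SNORD115 and SNORD116 cluster, which lower their shares. Of those 74, 5 had a read and 0 had at least 20 reads in total.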

How the data were processed

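Small RNA of HEK293T cells was sequenced, with 2 libraries in each of the 52X T4A and 52X WT groups. The authors deposited raw read counts per feature, without normalization, in 1 table per library. The submitters' processing notes name cutadapt 4.6, Bowtie2 2.3.5.1, featureCounts 1.5.0 and hg38; the annotation and the handling of reads matching several loci were not given in the sources used here. Of the 100 members, 53 were named by an identical RefSeq position (GRCh38.p14), 45 by identifier in GENCODE v44lift37, which also gave the overlapping genes and the snoRNA sequences, and 2 had no name. ENSG00000207742 was read as MIR487A by position, where GENCODE v44lift37 gives MIR382.

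Counts of all features were tested with edgeR 4.0.16 (R 4.3.3) by the quasi-likelihood test, after filterByExpr at a minimum count of 10 and TMM scaling, with Benjamini-Hochberg adjustment over 1480 features and a call at an adjusted p below 0.05 and a fold change above 1.5. The script was tested on simulated data. Total counts per library ran from 16180790 to 27370127. The SE is the size of the log2 fold change divided by the square root of F. Summed levels were compared by exact permutation over libraries. Alternatives were other scaling, no filter, a minimum mean of 10 counts, DESeq2 1.42.0, the replicate number as a block, 1 feature per set of near-equal counts (within 2%, mean of at least 100) and each library left out.

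Members named by rule were the 10 with the highest mean CPM, the 4 highest of each block, any called member, and the 4 largest rises and falls among tested members with a mean of at least 10 counts. This gave 14. The members, blocks and marker lists were chosen with earlier results of these data known.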

Additional observations from a re-analysis of the deposited data

How the results depend on the processing

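The number of called members was 0 under every alternative run, with the smallest adjusted p from 0.0738 (without 52X WT replicate 2) to 0.877 (without 52X T4A replicate 2). At an unadjusted p below 0.05 there were at most 2, among the 60 members tested without a filter (against 8.39% of all features tested) and among the 11 tested without 52X T4A replicate 1 (against 7.26%). Called features in the whole table were 2, and became 9 with library size alone, 29 without a filter, 28 with DESeq2 and 18 with the replicate number as a block, and from 4 to 218 when a library was left out, the highest without 52X WT replicate 2. The causes were not tested. No label ties libraries that share a number, and their deviations from the group means correlated at 0.095 over features. With the replicate number as a block, 0 members were called. A fit without a library assumes that the lone library of its group varies like the others.

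The median log2 fold change of tested members was −0.04 and ran from −0.64 to 0.30 over the fits without a library. Summed levels turned as follows. The cluster went to −0.15 without MIR127 and from −0.49 to 0.52 without a library, the miRNAs before the snoRNAs to −0.17 without MIR127 and from −0.28 to 0.71, and the snoRNAs from −1.34 to 0.19. The miRNAs after them went to 0.125 (upper quartile factors), 0.135 (library size alone) and 0.0641 without MIR381, and from −0.52 to 0.44 without a library. In these 4 sums the lowest value came without 52X T4A replicate 1 and the highest without 52X T4A replicate 2. Of 108 comparisons of the 9 tested members with an alternative, 93 kept their direction and 15 turned. With all libraries these were MIR493 at 0.12 and MIR381 at 0.0269 (upper quartile factors), MIR493 at 0.12, MIR381 at 0.0018 and MIR134 at 0.0119 (library size alone) and MIR493 at 0.0065 (DESeq2). Between the fits without 52X T4A replicate 1 and without 52X T4A replicate 2, MIR127 ran from −0.24 to 0.79, MIR381 from −1.57 to 0.67, MIR493 from −0.64 to 0.47 and MIR134 from −0.53 to 0.25. MIR379 ran from −0.48 to 0.615 and MIR382 from −0.12 to 1.11, with 52X WT replicate 1 left out at the low end and 52X WT replicate 2 at the high end. MIR409 stayed above 0 (0.38 to 1.43), and MIR299 (−1.39 to −0.66) and SNORD114-3 (−1.78 to −0.35) below it. The median of all tested features was 0.13 after upper quartile scaling and 0.14 with library size alone. The 91 members that failed the filter on low counts were not tested with it.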
